A study of Mus musculus with 6 samples.

Results

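Ubiquitin-conjugating enzymes and ubiquitin-specific proteases were examined in RNA from mouse neutrophils, in 3 liver and 3 blood libraries. The members were the genes whose symbols begin with Ube2 and a letter or with Usp and a digit, without Usp18 and pseudogenes, that had at least 10 expected counts in at least 3 of the 6 libraries. Of 53090 gene rows, 97 symbols fitted the patterns and 71 passed the count minimum, 29 of the Ube2 family and 42 of the Usp family. The symbol Usp39 had a pair of rows with the same 554.5 counts, of which 1 was kept, and its level is uncertain because reads may be split between the rows.

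All mice had been fed for 1 week with 3,5-Diethoxycarbonyl-1,4-Dihydrocollidine (DDC), which causes injury around bile ducts. The comparison is therefore between liver and blood of injured animals and not between diets. Liver cells came from a Percoll gradient and blood cells from lysed blood, and both were selected with beads against Ly6G, a surface protein of mouse neutrophils, so the preparation differed along with the organ. The labels give a number from 1 to 3 for each library, and nothing in them says that a number marks one mouse or that each library is a separate animal. The sources used here do not give strain, sex or age. The p-values then measure only how far these libraries spread, which may be technical.

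Ubiquitin is a small protein that is joined to other proteins in an enzyme cascade. An E1 enzyme activates it, an E2 (ubiquitin-conjugating) enzyme carries it on a cysteine, and an E3 ligase directs it to a target. The E2 often decides which chain is built: chains linked through lysine K48 usually send the target to the proteasome, and chains linked through K63 serve as signalling platforms downstream of Toll-like and tumour necrosis factor receptors. Some E2 enzymes carry ubiquitin-like proteins such as SUMO, NEDD8 or ISG15 instead. Ubiquitin-specific proteases (USPs) are the largest class of deubiquitinases and take ubiquitin off again. In leukocytes both arms regulate NF-kB signalling, survival and protein turnover.

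Total counts were 13054673 to 17579669 per library, and 3 counts corresponded to 0.181 to 0.263 CPM (counts relative to library size, with library sizes scaled by the trimmed mean of M values). Of the 13 neutrophil genes checked, all were tested and 9 were lower in liver (S100a8, S100a9, Csf3r and Cxcr2 among them), with a summed level of 7944 to 13610 CPM in liver and 21392 to 32690 CPM in blood. Monocyte markers were called higher in liver in 7 of 8 tested genes, with a sum of 2785 to 3496 CPM against 229 to 500 CPM. Hepatocyte markers were called higher in 6 of 6 tested genes (269 to 484 CPM against 108 to 149 CPM), and Kupffer cell and macrophage markers in 5 of 11 (602 to 953 CPM against 369 to 573 CPM). Of 6 tested endothelial markers 5 were called higher in liver, and of 6 platelet markers 4 were called lower. None of the markers in these lists was at 0 in all libraries. The part of these cells in the differences below was not tested, and in such bulk samples fewer cells of a type and less RNA per cell cannot be told apart.

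The liver libraries had more RNA than the blood libraries of Usp36, a nucleolar deubiquitinase. They also had more RNA of Usp10, Usp2, Usp37, Usp16, the NEDD8-carrying Ube2f and the endoplasmic reticulum enzyme Ube2j1. Usp46, Ube2h, Usp21, Usp32, Usp7, Usp3 and Ube2r2 had less RNA in the liver libraries. These 14 members passed the test in all 6 libraries together and again when any 1 library was left out, and all but Usp10 and Ube2r2 also passed without liver 3 and blood 1 together. Usp36 was 10.2-fold higher, and Usp46 and Ube2h were 3.75-fold and 2.99-fold lower. In all, 17 of 71 members were called higher in liver (23.9%, against 17.4% of all 13458 genes tested) and 12 were called lower (16.9%, against 14.2%), by edgeR's quasi-likelihood test with Benjamini-Hochberg adjustment over all genes at an adjusted p under 0.05. In either direction 40.8% of members were called, against 31.6% of all genes, and the difference between these shares was not tested. A change of at least 2-fold was called for 20 members, and for 24.4% of all genes. The median log2 fold change, liver minus blood, was 0.07 over the members (-0.02 to 0.05 with 1 library left out) and 0.04 over all genes. By family, 13 Usp members rose and 8 fell of 42, and 4 Ube2 members rose and 4 fell of 29.

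**Figure D1:**
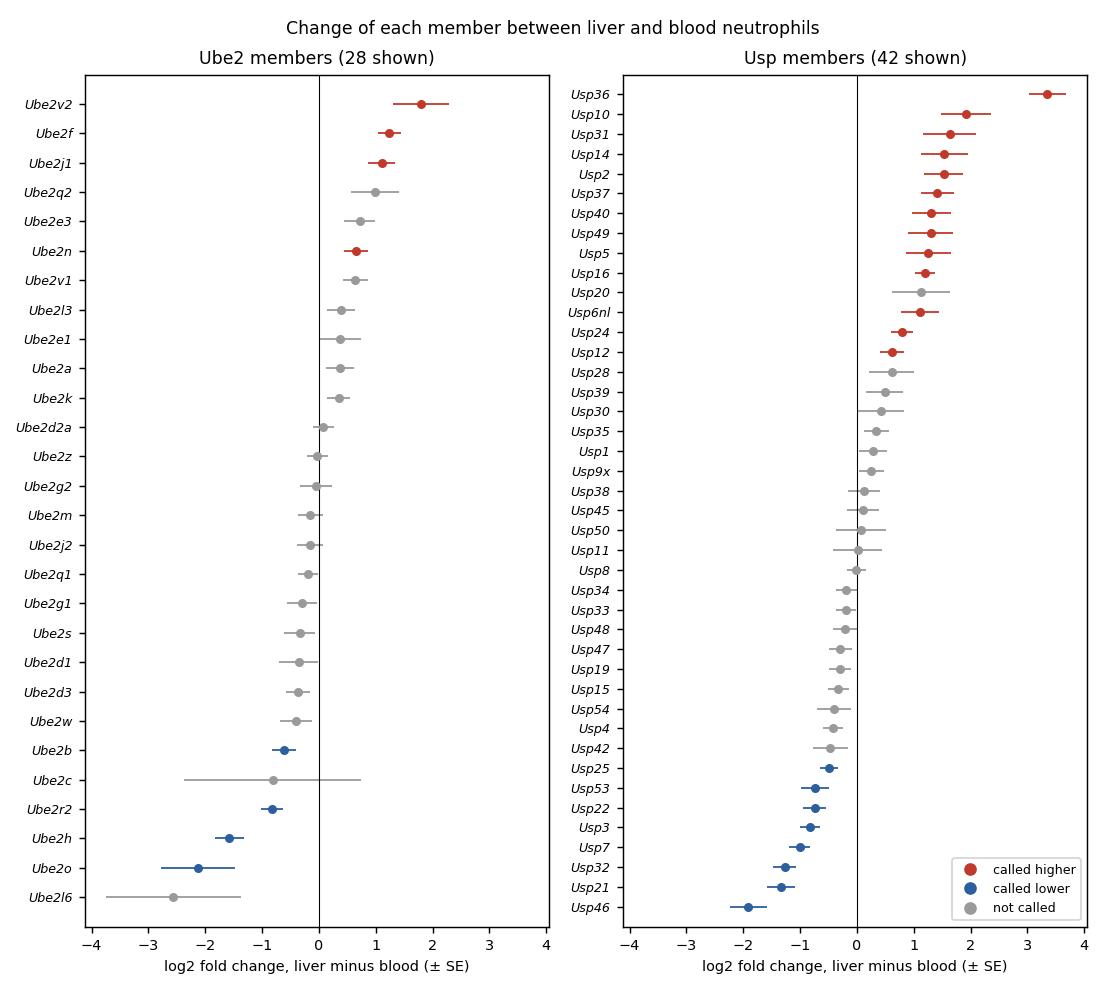
Log2 fold change, liver minus blood, of 70 of the 71 members with its standard error (horizontal bars), sorted within the Ube2 (left) and Usp (right) families, with colours for members called higher, called lower and not called. Usp36 lies farthest to the right at 3.35, and the 2 members farthest to the left, Ube2l6 and Ube2o, have the widest bars apart from Ube2c.

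Without liver 3 and blood 1, which had the highest hepatocyte and the highest erythroid transcripts, 9 members were called higher and 6 lower, and 15 of the 29 calls held. That fit had fewer libraries, and lower calls over all genes became fewer too. Whether the members lost more calls than other genes was not tested. The groups of 3 did not overlap in CPM for 36 members (50.7%), and 48.5% of all genes tested had groups that did not overlap. In CPM scaled by the trimmed mean of M values, the members together were lower in liver than in blood. Their summed level was 4001, 4147 and 3952 CPM in liver 1, 2 and 3 and 4887, 5425 and 4711 CPM in blood 1, 2 and 3, so every liver library lay below every blood library. The Usp sum was 2350, 2341 and 2437 CPM in liver and 2671, 2982 and 2861 CPM in blood, and the Ube2 sum was 1651, 1806 and 1515 CPM and 2216, 2443 and 1850 CPM. With this scaling neither sum overlapped between the organs. The scaling factors ran from 0.876 in blood 2 to 1.133 in liver 3, and sums as shares of the unscaled counts were not compared. The members called lower were the more abundant, with a median of 93.7 CPM over the 6 libraries, compared with 19.8 CPM for those called higher and 32.3 CPM for those not called.

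Sequence upstream of the annotated start is shown for the largest rise (Usp36), another rise that held in every fit (Usp16) and the fall with the most RNA among E2 enzymes (Ube2h), because these genes moved apart while all 3 carry the short element TGACG, the core of the cyclic AMP response element. The runs are the 250 bases before the RefSeq start, 5′ to 3′ on the gene's strand, from RefSeq's promoter table (GRCm38.p6). Capitals mark TGACG or its reverse complement CGTCA. GENCODE M21 starts Usp16 earlier, at 87454703, so by that annotation the Usp16 run lies inside the gene. Usp36 is read from chr11:118290245-118290494 on the minus strand, Usp16 from chr16:87454735-87454984 on the plus strand and Ube2h from chr6:30304540-30304789 on the minus strand.
Usp36: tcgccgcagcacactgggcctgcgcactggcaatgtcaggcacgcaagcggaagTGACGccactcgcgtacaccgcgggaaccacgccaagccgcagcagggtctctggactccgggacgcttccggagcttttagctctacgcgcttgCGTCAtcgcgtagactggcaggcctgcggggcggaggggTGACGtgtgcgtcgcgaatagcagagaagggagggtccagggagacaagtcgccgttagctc
Usp16: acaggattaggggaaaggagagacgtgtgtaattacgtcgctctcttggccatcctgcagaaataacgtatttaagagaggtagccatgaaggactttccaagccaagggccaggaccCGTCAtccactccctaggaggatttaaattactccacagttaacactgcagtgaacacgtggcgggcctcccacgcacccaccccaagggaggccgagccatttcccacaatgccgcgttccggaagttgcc
Ube2h: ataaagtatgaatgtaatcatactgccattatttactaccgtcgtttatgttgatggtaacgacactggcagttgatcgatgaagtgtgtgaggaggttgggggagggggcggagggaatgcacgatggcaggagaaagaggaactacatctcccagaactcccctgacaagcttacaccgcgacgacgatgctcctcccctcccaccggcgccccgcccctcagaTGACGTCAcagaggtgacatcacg

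The Usp36 stretch holds 3 copies of the element, counted on both strands, and 0.696% of 27025 promoters in the table hold at least 3. The Ube2h stretch holds the whole palindrome TGACGTCA, which contains the element on both strands and occurs in 1.62% of promoters. A promoter was listed for 55 of the 71 members, and the first listed start was used. TGACG or CGTCA was present in 6 of 14 members called higher, 3 of 9 called lower and 6 of 32 not called, and in 17.9% of all promoters. The E-box CACGTG was present in 3 of 14, 1 of 9 and 2 of 32 (6.05% of all promoters), and CCAAT or ATTGG in 2 of 14, 2 of 9 and 6 of 32 (34.5%). A loose NF-kB core on either strand was present in 9 of 14, 5 of 9 and 21 of 32 (45.4%). TGACGTCA itself was found in 0 of 14, 1 of 9 and 0 of 32. A match describes these letters only and says nothing of a factor bound there.

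The members are described below by class. All the class counts stand beside 17.4% of all genes tested called higher and 14.2% called lower, and no class was tested. Among E2 enzymes, those that begin chains on substrates had no called member. The class comprised Ube2d1, Ube2d2a, Ube2d3, Ube2e1, Ube2e3 and Ube2w, with log2 fold changes from -0.40 to 0.71. Ube2d3, a general-purpose partner of many E3 ligases, had the most RNA of any member per transcript length (median length of its coding transcripts) in both organs, at 161 CPM per kilobase in liver and 208 in blood. Its level was 369, 445 and 396 CPM in liver 1, 2 and 3 and 476, 644 and 440 CPM in blood 1, 2 and 3, so the groups overlapped (log2 fold change -0.37 ± 0.21 (SE), edgeR adjusted p = 0.21). Ube2e3 had a log2 fold change of 0.71 ± 0.27 (edgeR adjusted p = 0.070). The Ube2d genes are close relatives and have pseudogenes. Expected counts of Ube2d2a and Ube2d3 included fractions, so their reads may be shared with other genes, whereas those of Ube2d1 were whole numbers.

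Of the enzymes of K63 chains, 2 of 3 were called higher, beside 17.4% of all genes tested, and the class median log2 fold change was 0.65. The class is too small for these counts to describe it as a whole. Ube2n, a catalytic subunit, had 49.0, 69.4 and 46.8 CPM in liver 1, 2 and 3 and 37.4, 34.6 and 33.4 CPM in blood 1, 2 and 3. Every liver value was above every blood value, but the call was close to the threshold (log2 fold change 0.65 ± 0.21, edgeR adjusted p = 0.043) and was lost without liver 1 or 2 or any blood library (adjusted p 0.068 to 0.16). Ube2v2, a partner subunit without a catalytic cysteine, had 5.68, 3.49 and 3.47 CPM in liver against 1.65, 0.876 and 1.07 CPM in blood. It was 3.48-fold higher (edgeR adjusted p = 0.021) on only 48.72 counts over the blood libraries, and the call was lost without liver 1, blood 2 or blood 3 (adjusted p 0.062 to 0.085). Ube2v1, the other partner and the more abundant of the pair in CPM, had a log2 fold change of 0.64 ± 0.22 and missed the threshold (edgeR adjusted p = 0.053), although 3 of 14 alternative fits called it higher (0.029 to 0.20 over all 14). A same-strand gene model, Gm20431, covers 61.5% of the exon bases of Ube2v1, so its reads may be shared.

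Enzymes of K48 chains and of degradation at the endoplasmic reticulum went both ways, with 1 higher and 1 lower of 6. Ube2j1, a membrane-anchored enzyme that marks misfolded proteins drawn out of the endoplasmic reticulum, had 103, 87.0 and 60.8 CPM in liver 1, 2 and 3 and 35.1, 46.6 and 34.9 CPM in blood. It was 2.15-fold higher in liver (edgeR adjusted p = 0.0078), and the lowest liver library was still above the highest blood library. Its relative Ube2j2 had a log2 fold change of -0.15 ± 0.23 (edgeR adjusted p = 0.64). Ube2r2, a CDC34-type enzyme of cullin-RING ligases, fell from 78.4, 59.5 and 77.6 CPM in blood to 42.9, 40.1 and 38.7 CPM in liver, a 1.77-fold difference (edgeR adjusted p = 0.010). It was not called without liver 3 and blood 1 together (edgeR adjusted p = 0.072). Ube2k, Ube2g1 and Ube2g2 had log2 fold changes of 0.35, -0.30 and -0.05 and were not called.

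Of the enzymes that carry ubiquitin-like proteins, Ube2f was called among 5. Ube2f loads NEDD8 onto cullin 5 and had 45.1, 49.1 and 43.5 CPM in liver 1, 2 and 3 and 21.6, 16.6 and 20.1 CPM in blood. It was 2.36-fold higher in liver (log2 fold change 1.24 ± 0.20, edgeR adjusted p = 0.0024), with a wide gap between the groups. Ube2m, which loads NEDD8 onto the other cullins, had 27.5, 27.5 and 22.2 CPM in liver and 24.7, 34.3 and 26.6 CPM in blood, and the groups overlapped (log2 fold change -0.15 ± 0.23, edgeR adjusted p = 0.64). The log2 ratio of Ube2f to Ube2m was 0.84 ± 0.13 in liver and -0.55 ± 0.45 in blood (SD, n = 3), with no overlap. Ube2z, which carries ubiquitin and the ubiquitin-like FAT10, had a log2 fold change of -0.03 ± 0.19.

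Ube2l6 and Ube2o had the same order of libraries as the red cell transcripts within each organ. Ube2l6, the E2 enzyme of ISG15, had 14.8, 21.2 and 5.47 CPM in liver 1, 2 and 3 and 170, 69.3 and 5.97 CPM in blood 1, 2 and 3. It had a log2 fold change of -2.56 ± 1.18 and was not called (edgeR adjusted p = 0.16, and 0.012 without blood 3, with 0.012 to 0.55 over 14 alternatives). Its log2 fold change was -1.50 without blood 1, ran from -3.15 to -1.50 over the fits that lacked 1 library, and was -1.10 without liver 3 and blood 1. Ube2o, a large enzyme with E2 and E3 activity that clears proteins in maturing red cells, had 29.0, 33.4 and 22.8 CPM in liver and 225, 116 and 30.9 CPM in blood. It was 4.37-fold lower in liver (edgeR adjusted p = 0.049), although blood 3 lay within the liver range. Leaving out any library except blood 3 ended the call (adjusted p 0.066 to 0.16), and the log2 fold change without 1 library ran from -2.63 to -1.43. The 6 erythroid markers Hba-a1, Hba-a2, Hbb-bs, Hbb-bt, Alas2 and Slc4a1 summed to 2061, 2721 and 142 CPM in liver 1, 2 and 3 and 33639, 14737 and 367 CPM in blood 1, 2 and 3, the same order of libraries as for Ube2o and Ube2l6 within each organ. None of these erythroid markers was at 0 in all libraries, and none of 6 was called. Summed platelet markers also fell through the blood libraries (298, 92.6 and 41.1 CPM in blood 1, 2 and 3). In liver 1, 2 and 3 they were at 9.96, 19.6 and 16.2 CPM, another order. The part of red cell or platelet RNA in the Ube2o and Ube2l6 values was not tested.

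**Figure D2:**
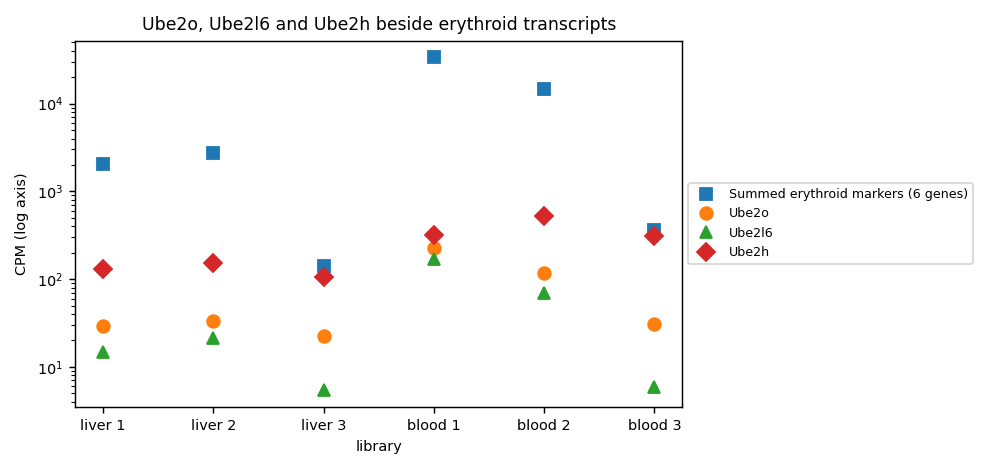
CPM of Ube2o, Ube2l6, Ube2h and the summed erythroid markers in each of the 6 libraries on a log axis. The markers, Ube2o and Ube2l6 are highest in blood 1 and fall through blood 2 to blood 3, whereas Ube2h is highest in blood 2 and remains at 313 CPM in blood 3.

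Ube2h, an enzyme that works with the CTLH ligase complex and that is also known from red cell maturation, did not have that order in blood. It had 129, 152 and 107 CPM in liver 1, 2 and 3 and 321, 529 and 313 CPM in blood 1, 2 and 3. All blood values were above all liver values, blood 3 with few erythroid transcripts included, and Ube2h was 2.99-fold lower in liver (log2 fold change -1.58 ± 0.26, edgeR adjusted p = 0.0022). Within liver its order of libraries was that of the erythroid markers, and the part of red cell RNA in the Ube2h values was not tested. The gene (ENSMUSG00000039159) lies on chromosome 6 from 30211289 to 30304539 on the minus strand (GRCm38). Per transcript length it stood in rank 3 of the members in blood and in rank 4 in liver. In the rest of that class, Ube2l3, Ube2q1 and Ube2q2 had log2 fold changes of 0.39, -0.19 and 0.98 and were not called.

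Of the E2 enzymes of the cell cycle and DNA repair, 1 of 4 was called. Ube2b, a RAD6 enzyme, had 125, 126 and 91.9 CPM in liver and 159, 214 and 154 CPM in blood, groups that did not overlap. It was 1.54-fold lower (edgeR adjusted p = 0.048), but the call was lost without any 1 of the 6 libraries (adjusted p 0.052 to 0.13). Its near relative Ube2a had a log2 fold change of 0.37 ± 0.25 and was not called. Ube2c and Ube2s, which work with the anaphase-promoting complex in mitosis, had log2 fold changes of -0.81 ± 1.55 and -0.34 ± 0.27. Ube2c had 4.24, 0.482 and 0.129 CPM in liver and 6.25, 2.28 and 0 CPM in blood, so the libraries of 1 organ spread more widely than the organs differed.

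In the class of USPs known to act on histones or chromatin, drawn up with earlier results of these data known, 3 of 7 members were called higher and 4 lower, beside 17.4% and 14.2% of all genes tested. No test was made of the class, and some of its members, Usp7 among them, could be placed in another. Usp36, a nucleolar deubiquitinase that also stabilises MYC, had 69.5, 47.1 and 39.1 CPM in liver 1, 2 and 3 and 5.89, 6.05 and 3.36 CPM in blood 1, 2 and 3. The lowest liver library was several times the highest blood library, and the log2 fold change was 3.35 ± 0.33 (edgeR adjusted p = 0.00027). It ran from 3.07 to 3.51 when 1 library was left out. Usp36 (ENSMUSG00000033909) lies on chromosome 11 from 118259651 to 118290244 on the minus strand, and no other annotated gene shares its exon bases.

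Usp16, which removes ubiquitin from a core histone and is used in mitosis, had 68.7, 84.4 and 73.3 CPM in liver and 32.1, 32.2 and 34.5 CPM in blood. It was 2.29-fold higher in liver (edgeR adjusted p = 0.0017), and the blood libraries were nearly equal. Usp49, a deubiquitinase of another core histone, had 18.99, 22.5 and 11.3 CPM in liver and 4.10, 7.27 and 10.1 CPM in blood. It was 2.46-fold higher (edgeR adjusted p = 0.032), but the gap between liver 3 and blood 3 was small and the gene was no longer called in fits lacking liver 1, liver 2, blood 1 or blood 2, where edgeR gave an adjusted p of 0.079 to 0.11. The same-strand gene model Gm20517 covers 51.2% of its exon bases.

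Usp7, known for regulating p53 and its ligase MDM2, fell from 280, 323 and 302 CPM in blood 1, 2 and 3 to 127, 150 and 173 CPM in liver 1, 2 and 3, a 2.01-fold difference (edgeR adjusted p = 0.0041). Usp3, a histone deubiquitinase, had 74.7, 74.9 and 90.6 CPM in liver and 155, 140 and 131 CPM in blood and was 1.78-fold lower (edgeR adjusted p = 0.0075). For both genes each liver library lay well below each blood library.

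Usp21, which also acts on histones, had 7.83, 9.46 and 7.14 CPM in liver and 19.9, 21.3 and 20.5 CPM in blood, 2.53-fold lower in liver (edgeR adjusted p = 0.0044) with little spread in either organ. Usp22, the deubiquitinase of the SAGA coactivator complex, had 61.0, 64.8 and 44.8 CPM in liver and 82.9, 106 and 96.6 CPM in blood. It was 1.67-fold lower (edgeR adjusted p = 0.021), and the call was lost without liver 3 or blood 2 (adjusted p 0.057 to 0.059). Within 1 functional class, then, members moved in opposite directions.

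**Figure D3:**
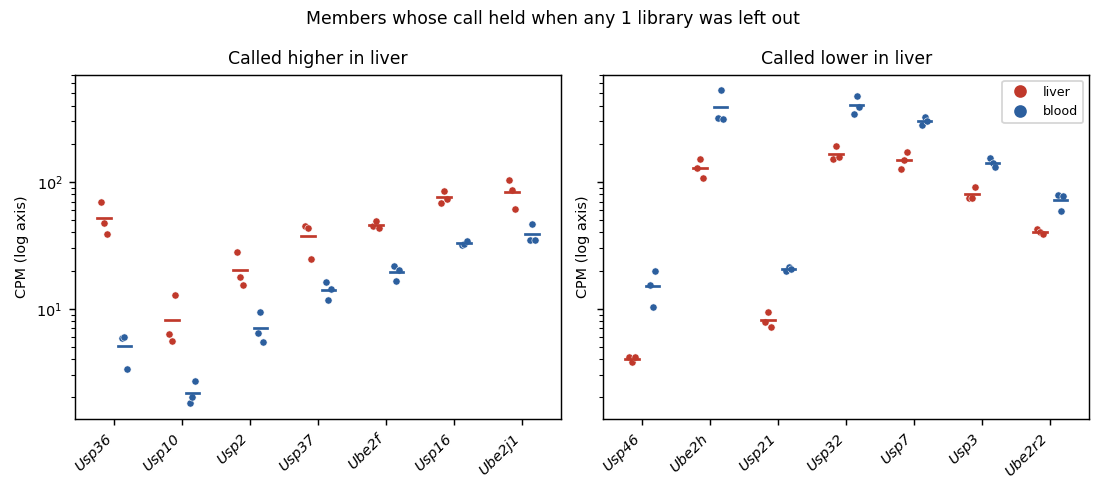
CPM in each library (points, liver red and blood blue, log axis) with the mean of 3 libraries (lines) for the 7 members called higher and the 7 called lower in liver whose calls held when any 1 library was left out. The groups do not overlap for any of the 14, and the distance is widest for Usp36. The choice by calls that held favours such gaps, and 48.5% of all genes tested had groups that did not overlap.

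In the class of DNA repair and p53, 2 of 8 were higher and 1 was lower. Usp10, which stabilises p53 in the cytoplasm and binds the stress granule protein G3BP1, had 6.33, 5.54 and 12.7 CPM in liver 1, 2 and 3 and 1.80, 2.02 and 2.69 CPM in blood. It was 3.77-fold higher (edgeR adjusted p = 0.010), with liver 3 the highest library, and without liver 3 and blood 1 together its log2 fold change was 1.31 instead of 1.91 and it was not called (edgeR adjusted p = 0.10). Usp46 had 4.18, 3.79 and 4.18 CPM in liver and 15.5, 10.3 and 19.9 CPM in blood, 3.75-fold lower in liver (log2 fold change -1.91 ± 0.33, edgeR adjusted p = 0.0030). The liver libraries were nearly equal and all below blood. Usp46 lies on chromosome 5 from 73998453 to 74068431 on the minus strand. Usp46os2, on the other strand, overlaps 3.67% of the Usp46 exon bases.

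Usp12, the closest relative of Usp46 and, like it, activated by the WDR48 and WDR20 proteins, had 66.4, 50.6 and 70.0 CPM in liver and 44.4, 33.6 and 43.6 CPM in blood. It was 1.54-fold higher (edgeR adjusted p = 0.048), and the call was lost without any library except liver 2 (adjusted p 0.088 to 0.15). The log2 ratio of Usp12 to Usp46 was 3.99, 3.74 and 4.07 in liver and 1.52, 1.71 and 1.13 in blood. Usp1, the WDR48-dependent enzyme of the Fanconi pathway, had a log2 fold change of 0.28 ± 0.24, and Usp28, Usp42, Usp45 and Usp47 had values from -0.47 to 0.62. None of these 5 was called.

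**Figure D4:**
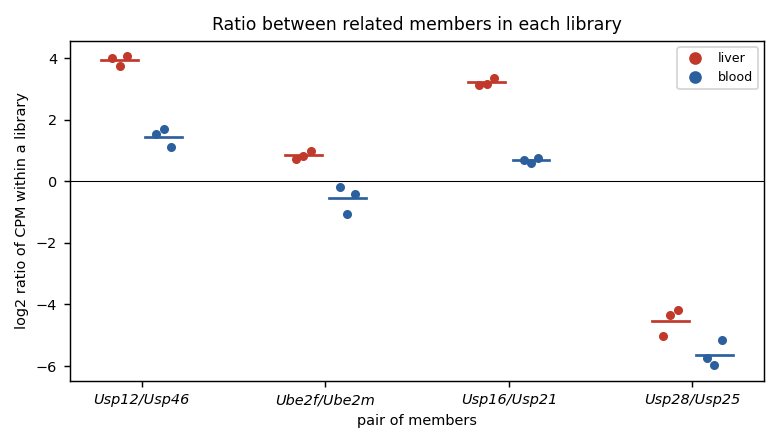
Log2 ratio of CPM between related members in each library (points, liver red and blood blue) with the mean of 3 libraries (lines). For all 4 pairs, chosen after their values were seen, the liver ratios lie above the blood ratios without overlap, by 2.48 for Usp12 to Usp46 and 1.39 for Ube2f to Ube2m.

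The ratio was computed for 4 pairs chosen after their values were seen, which also included Usp16 to Usp21 and Usp28 to Usp25. The ratios differed between organs by 2.48, 1.39, 2.54 and 1.11 on the log2 scale for Usp12 to Usp46, Ube2f to Ube2m, Usp16 to Usp21 and Usp28 to Usp25. Because of that choice the ratios are a description, with no test, and their lack of overlap supports nothing.

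USPs of the proteasome and endoplasmic reticulum had 2 higher and 1 lower of 4. Usp14, which sits on the proteasome and trims ubiquitin there, had 5.74, 5.54 and 10.9 CPM in liver and 2.95, 2.45 and 2.22 CPM in blood. It was 2.90-fold higher (edgeR adjusted p = 0.019) with liver 3 the highest, and the call was lost without liver 3, blood 2 or blood 3 (adjusted p 0.055 to 0.082). Thoc1, on the other strand, overlaps 26.0% of its exon bases. Usp5, which takes apart free ubiquitin chains, had 9.46, 6.81 and 18.2 CPM in liver and 4.89, 4.99 and 4.57 CPM in blood, 2.38-fold higher (edgeR adjusted p = 0.038). That call was lost without any library except liver 2 (adjusted p 0.063 to 0.16).

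For Usp14, Usp5 and Usp10 the highest library was liver 3, which also had the highest summed hepatocyte (484 CPM), Kupffer cell (953 CPM) and monocyte markers (3496 CPM, against 2935 and 2785 CPM in liver 1 and 2). The same library had the lowest summed neutrophil markers of liver (7944 CPM, against 11118 and 13610 CPM), and the part of these cells was not tested. Of the other members called higher, Usp6nl, Usp12, Usp40 and Usp24 also had their highest level in liver 3. None of them was called without liver 3 and blood 1 together (edgeR adjusted p 0.094 to 0.18). Usp25, a regulator of receptor signalling, had 152, 160 and 165 CPM in liver and 217, 225 and 231 CPM in blood. It was 1.41-fold lower (edgeR adjusted p = 0.044), with tight groups that did not overlap, but the call was lost without any 1 library (adjusted p 0.070 to 0.12). Usp19, anchored in the endoplasmic reticulum, had 138 to 177 CPM in liver and 175 to 232 CPM in blood and was not called (edgeR adjusted p = 0.25).

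Among USPs of endosomes, mitochondria and autophagy, 1 of 5 was called, and that member is no deubiquitinase. Usp6nl, also called RN-tre, fits the symbol pattern but encodes a GTPase-activating protein of Rab proteins. It had 15.7, 11.2 and 21.2 CPM in liver and 7.83, 8.94 and 5.57 CPM in blood, 2.15-fold higher (edgeR adjusted p = 0.031), and it was no longer called in fits lacking liver 1, liver 3, blood 1 or blood 3, where edgeR gave an adjusted p of 0.076 to 0.11. Usp8, which deubiquitinates receptors at endosomes, had 129, 149 and 139 CPM in liver and 144, 128 and 149 CPM in blood, among the closest levels of any member (log2 fold change -0.01 ± 0.17, edgeR adjusted p = 0.96). Usp20, Usp30 and Usp33 had log2 fold changes of 1.12 ± 0.51, 0.42 ± 0.41 and -0.20 ± 0.18 and were not called.

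In the class of TGF-beta, WNT and inflammatory signalling, 2 of 8 rose and none fell. Usp2, known as an output gene of the circadian clock, had 28.1, 17.7 and 15.4 CPM in liver 1, 2 and 3 and 6.47, 9.38 and 5.44 CPM in blood. It was 2.88-fold higher (edgeR adjusted p = 0.0088), with all liver values above all blood values. Usp31, a less studied member linked to NF-kB, had 11.2, 4.82 and 9.33 CPM in liver and 4.24, 1.84 and 2.08 CPM in blood. It was 3.09-fold higher (edgeR adjusted p = 0.026), liver 2 was close to blood 1, and it was no longer called in fits lacking liver 1, liver 3, blood 2 or blood 3, where edgeR gave an adjusted p of 0.068 to 0.099.

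The abundant members of that class were not called. Usp9x, a large deubiquitinase of the X chromosome that stabilises MCL1, had 152 to 201 CPM in liver and 127 to 193 CPM in blood (log2 fold change 0.25 ± 0.22). Usp15 and Usp4, paralogs that act on TGF-beta receptor signalling, had log2 fold changes of -0.33 ± 0.18 and -0.42 ± 0.18 (edgeR adjusted p = 0.20 and 0.093). The liver and blood libraries did not overlap for Usp4, with 86.6 to 112 CPM against 127 to 141 CPM. Usp34, Usp48 and Usp11 had values of -0.19, -0.21 and 0.01.

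The 9 remaining USPs, whose roles are less settled, had 3 higher and 2 lower. Usp37, which opposes degradation of cell cycle proteins, had 45.2, 43.2 and 24.5 CPM in liver 1, 2 and 3 and 16.2, 11.7 and 14.4 CPM in blood, 2.67-fold higher (edgeR adjusted p = 0.0057). Usp32, associated with the Golgi and endosomes, had 151, 193 and 156 CPM in liver and 344, 478 and 387 CPM in blood, 2.42-fold lower (log2 fold change -1.27 ± 0.21, edgeR adjusted p = 0.0022). It was the Usp gene with the highest CPM in blood, and its groups were well apart.

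Usp40 and Usp24 were 2.48-fold and 1.74-fold higher (edgeR adjusted p = 0.019 and 0.014), and Usp53 was 1.66-fold lower (edgeR adjusted p = 0.047). The Usp40 call ended in fits lacking liver 2, liver 3, blood 1 or blood 2 (with an edgeR adjusted p of 0.056 to 0.067), that of Usp24 without blood 2 (0.0502), and that of Usp53 without any library except liver 2 (0.067 to 0.14). Usp35, Usp38, Usp50 and Usp54 had log2 fold changes of 0.34, 0.12, 0.07 and -0.41 and were not called. Usp39, a splicing factor that has lost the catalytic cysteine, had 7.70, 7.83 and 6.17 CPM in liver and 4.60, 4.56 and 6.31 CPM in blood (log2 fold change 0.49 ± 0.33, edgeR adjusted p = 0.28).

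The 26 symbols below the count minimum comprised 11 of the Ube2 and 15 of the Usp family. Of these, 14 were at 0 in all libraries, Usp13, Usp51, Ube2u and the Usp17l genes among them. Just outside the minimum were Ube2d2b, Usp27x and Ube2t with 51, 46 and 43 counts over the 6 libraries, and just inside were Ube2c, Usp50 and Ube2v2 with 188, 231.57 and 247.94 counts. Of the 71 members, 70 had at least 10 counts in all 6 libraries, and Ube2c did not.

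Outside both families, 12 lists of the ubiquitin system held 82 tested genes. Of these, 8 were called higher and 18 lower in liver, beside 17.4% and 14.2% of all genes tested. In either direction 31.7% were called, against 31.6% of all genes, and no list was tested as a set. Tnfaip3, encoding the NF-kB inhibitor A20, was the largest rise among OTU deubiquitinases, with a mean of 1527 ± 327 CPM in liver against 156 ± 75.0 CPM in blood (SD over 3 libraries), a log2 fold change of 3.29 ± 0.36 (edgeR adjusted p = 0.00048). Otud3 was the largest fall there (-1.53 ± 0.33), and 3 of 14 were higher and 3 lower. The E1 enzymes had 1 higher and 1 lower of 8: Uba6, which charges ubiquitin and FAT10, rose by 0.70 and Uba7, which activates ISG15, fell by 1.33 on the log2 scale. Of 17 inflammatory E3 ligases, 2 were higher, led by Birc3 (1.02 ± 0.22), and 5 were lower, led by Rnf31, the catalytic subunit of the linear ubiquitin ligase (-1.44 ± 0.23).

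The proteasome lid deubiquitinase Psmd14 (0.84) and Brcc3 (1.14) were called higher, and Mysm1 (-0.70) and Mpnd (-0.83) lower, of 7 JAMM enzymes. SUMO and NEDD8 proteases had 0 higher and 3 lower of 6, led by Senp7 (-1.33 ± 0.23). Josephin enzymes had 1 lower of 3 (Atxn3, -0.66), MINDY and ZUFSP enzymes 1 lower of 4 (Mindy2, -1.07), other E2 enzymes 1 lower of 5 (Aktip, -0.97) and ubiquitin genes 1 lower of 4 (Rps27a, -0.64). None of 8 Nedd4 family ligases, 3 UCH enzymes and 3 other enzymes with a USP fold was called. Cyld, of the last group, was at 178 ± 51.7 CPM in liver against 136 ± 4.03 CPM in blood (edgeR adjusted p = 0.20). The polyubiquitin gene Ubb had a mean of 1461 CPM in liver against 2740 CPM in blood and was not called (edgeR adjusted p = 0.062).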

How the data were processed

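Libraries of Ly6G-selected cells came from a strand-keeping total RNA kit for small inputs and were sequenced from both ends, per the labels. Each deposited file gives the authors' expected counts. The submitters' processing notes list STAR, RSEM, FastQC 0.11.5, limma and the build GRCm38, without roles. The sources used here do not say if counting used strand: antisense and overlapping genes cannot be told apart. Usp46 and Usp46os2, on the other strand, both had fractional counts in blood 1 (214.86 and 4.14) and blood 3 (296.87 and 2.13). Reads may thus have been divided between these strands. Expected counts were rounded to whole numbers, filtered with filterByExpr (minimum count 10, minimum total 15), scaled by TMM and tested with a robust quasi-likelihood F test in edgeR 4.0.16 (R 4.3.3) over 13458 genes. Called means a Benjamini-Hochberg adjusted p under 0.05. Standard errors come from the F statistic. On simulated data with 3 against 3 libraries the fitted changes were close to the planted ones, but false calls made up a larger share of the calls than the threshold allows, and most planted 2-fold changes were not called. Gene coordinates, exon overlaps and transcript lengths are from GENCODE M21 (GRCm38), which holds 98.9% of the rows. Named members were those called with at least a 1.5-fold change, the most abundant of each class and a fixed set; others are named to account for the rest of the members. Members, classes, lists and motifs were chosen with earlier results of these data known. The CPM values given for 3 counts cover counting error only. Alternatives were other scalings, DESeq2 1.42.0, limma-voom (limma 3.58.1), other count filters, a replicate block and leaving out libraries. Values of 1 member and of 1 other gene are not reported here, and both stay in the counts.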

Additional observations from a re-analysis of the deposited data

How the results depend on the processing

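The 8 counts of calls (higher and lower over all genes, all members and each family) stayed within 1.5 times their value with size-factor scaling, total counts alone, DESeq2, limma-voom, no count filter, a minimum count of 50 and a replicate block. With the replicate block, 16 members were called higher and 12 lower, and 25 of the 29 calls held. The sample numbers were not taken as pairs, because the labels do not say that a number marks one mouse. Deviations of same-numbered liver and blood libraries from their group means correlated by 0.054, 0.16 and 0.023. Liver 1 and liver 2 correlated best with the blood library of their own number, and liver 3 with blood 1 (0.12). With 3 libraries per organ these values cannot decide whether the numbers mark pairs. Leaving out 1 library gave 1732 to 1993 higher and 1323 to 1626 lower calls over all genes, 8 to 14 higher and 7 to 10 lower over the members, 2 to 4 higher and 2 to 4 lower for Ube2, and 6 to 11 higher and 5 to 7 lower for Usp. Fewer samples enter these fits. With liver 3 and blood 1 both left out there were 1195 lower calls over all genes, against 1916 with all libraries. In that fit there were 9 higher and 6 lower calls over the members, 1 lower for Ube2, and 6 higher and 5 lower for Usp. Of 614 values of named genes under alternatives, 509 kept direction and side of the threshold, 95 fell short of it, 5 newly passed it and 5 changed sign, all in uncalled genes. Without 1 library, Usp8 ran from -0.0995 upward and Ube2c from -3.18 upward. The changes of sign were Usp8 at 0.049 with total counts alone, 0.076 with a minimum count of 50 and 0.030 without liver 1, and Ube2c at 0.47 without blood 1 and 1.04 without liver 3 and blood 1. The cause was not tested. Ube2v2, with 48.72 counts over the blood libraries, and Usp10, with 88, had few reads behind their blood levels.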

Other observations

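Genes of partner proteins of several members were looked up after the members' values were seen, 9 in all, of which 1 was called higher and 3 lower. Of all genes tested, 17.4% were called higher and 14.2% lower, so shared directions below are a description and were not tested. Wdr48 and Wdr20, whose proteins activate USP12 and USP46, were both lower in liver. Wdr48 was at 25.8 ± 0.236 CPM in liver against 43.3 ± 2.53 CPM in blood (SD over 3 libraries), with a log2 fold change of -0.75 ± 0.19 (SE) and an edgeR adjusted p of 0.015. Wdr20 had 17.9 ± 3.71 and 34.8 ± 3.73 CPM, with -0.95 ± 0.23 and an edgeR adjusted p of 0.014. Usp46 therefore moved in the direction of both activator genes and Usp12 in the other. G3bp1, encoding the stress granule protein that binds USP10, was higher like Usp10, at 81.5 ± 7.38 CPM in liver against 24.4 ± 5.56 CPM in blood (log2 fold change 1.74 ± 0.22, edgeR adjusted p = 0.00078).

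Atxn7l3, which anchors USP22 in the SAGA deubiquitinase module, was lower in liver like Usp22, with 48.2 ± 4.34 CPM against 73.9 ± 7.26 CPM (log2 fold change -0.62 ± 0.18, edgeR adjusted p = 0.028). Eny2 of the same module had 2.74 and 1.34 CPM and was not called (edgeR adjusted p = 0.17). The NEDD8 partners of UBE2F did not share its call: Nedd8, Rnf7, Rbx1 and Cul5 had log2 fold changes of -0.29, 0.30, -0.33 and 0.75 with edgeR adjusted p of 0.45, 0.51, 0.48 and 0.11.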
